A study of Homo sapiens with 10 samples.

Results

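The lung lineage and secretory cell factors examined here are 10 genes picked by name: the transcription factors NKX2-1, FOXA1, FOXA2, SOX2 and SPDEF, the secretory chaperone AGR2, and the surfactant system genes SFTPB, NAPSA, ABCA3 and GPR116. All 10 were found among the 23234 genes shared by the 5 deposited tables. Their levels were read in 10 RNA-seq libraries of human lung adenocarcinoma cells. The 3 established lines were H358, PC9 and PC9M, and the labels describe PC9M as forming more bone and brain metastases. In each line a culture given DMSO was paired with a culture given GNF5, an allosteric inhibitor of the ABL kinases, for 72 h, at a labelled dose of 20 mM in PC9M and 10 mM in the other lines, a unit taken from the labels as it stands. In PC9 and PC9M a culture with scrambled shRNA was also paired with a culture with shRNAs against ABL1 and ABL2, both transduced with 8 µg/mL polybrene. Each of the 10 groups held 1 library, so no group has a replicate and a value within a pair has no error. In bulk RNA, fewer cells of a type and less RNA per cell cannot be told apart.

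NKX2-1 is the homeodomain factor that specifies lung and thyroid, and in the adult lung it stays on in alveolar type 2 and club cells, where it works with the forkhead pioneer factors FOXA1 and FOXA2 on surfactant genes. SOX2 marks the proximal airway and its basal and secretory cells. SPDEF is an ETS factor that drives goblet cell differentiation in the mouse airway, and AGR2 is a disulfide isomerase of the endoplasmic reticulum needed for mucin folding. SFTPB is surfactant protein B, NAPSA the aspartic protease that helps to process its precursor, ABCA3 the transporter that loads surfactant lipids into lamellar bodies, and GPR116 an adhesion receptor that in mice limits the alveolar surfactant pool and is also present on endothelium.

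Promoters are shown for SPDEF, AGR2, GPR116 and SFTPB, the members at least 2-fold apart within a pair of libraries, and for NKX2-1, which bears on the lineage of the lines. Sequences are from RefSeq on GRCh38.p14, each 250 bases before to 50 after a listed start, and 9 of the 10 members matched, with 13 promoters among them. FOXA2 is not among them. Capitals mark 4 spellings searched on both strands, TGTTTA and TGTTTG for the FOXA core and CTCAAG and CAAGTG for the NKX2 core. CTCAAG and CAAGTG can overlap, but did not in these 5 windows.
SPDEF: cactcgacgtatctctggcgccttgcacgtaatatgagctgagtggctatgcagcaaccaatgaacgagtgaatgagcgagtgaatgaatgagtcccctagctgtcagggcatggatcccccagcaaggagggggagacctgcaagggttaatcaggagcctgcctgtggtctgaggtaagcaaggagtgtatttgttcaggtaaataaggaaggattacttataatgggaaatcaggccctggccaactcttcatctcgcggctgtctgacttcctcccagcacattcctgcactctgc
AGR2: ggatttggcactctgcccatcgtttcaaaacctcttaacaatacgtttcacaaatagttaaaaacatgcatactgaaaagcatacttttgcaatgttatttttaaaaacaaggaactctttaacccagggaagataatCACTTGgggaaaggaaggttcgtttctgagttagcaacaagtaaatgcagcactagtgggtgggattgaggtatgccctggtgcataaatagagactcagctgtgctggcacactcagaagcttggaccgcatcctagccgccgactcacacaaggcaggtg
GPR116: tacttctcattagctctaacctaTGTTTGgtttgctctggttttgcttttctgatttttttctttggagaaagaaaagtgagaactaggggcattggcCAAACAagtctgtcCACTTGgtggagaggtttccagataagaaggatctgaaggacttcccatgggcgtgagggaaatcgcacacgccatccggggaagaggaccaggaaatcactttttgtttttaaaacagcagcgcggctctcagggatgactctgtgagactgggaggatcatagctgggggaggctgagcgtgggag
SFTPB: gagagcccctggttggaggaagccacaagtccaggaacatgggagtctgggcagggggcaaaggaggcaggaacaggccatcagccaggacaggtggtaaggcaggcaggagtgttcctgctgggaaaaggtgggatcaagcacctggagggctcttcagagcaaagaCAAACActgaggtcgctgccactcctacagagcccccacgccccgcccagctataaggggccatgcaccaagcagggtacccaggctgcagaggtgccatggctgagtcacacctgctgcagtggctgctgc
NKX2-1: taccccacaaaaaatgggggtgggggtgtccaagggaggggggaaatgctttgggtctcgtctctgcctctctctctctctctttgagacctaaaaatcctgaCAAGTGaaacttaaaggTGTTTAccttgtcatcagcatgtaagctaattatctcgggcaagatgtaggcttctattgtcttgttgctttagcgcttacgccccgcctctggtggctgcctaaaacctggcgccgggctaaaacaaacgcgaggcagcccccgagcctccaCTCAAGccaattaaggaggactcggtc
The windows are chr6:34556280-34556579 for SPDEF, chr7:16804950-16805249 for AGR2, chr6:46921889-46922188 for GPR116, chr2:85668150-85668449 for SFTPB and chr14:36519507-36519806 for NKX2-1, all read from the minus strand. For genes with more than 1 listed start, the window with more matches is printed. The unprinted window held no match for SFTPB and 1 FOXA spelling each for GPR116 and NKX2-1. The shares that follow are over promoters not picked by their matches, so they are no baseline for these windows. Either FOXA spelling is found in 24.5% of 35116 RefSeq promoters and either NKX2 spelling in 21.7%. The SPDEF window held none of the 4, AGR2 held 1 NKX2 spelling, and SFTPB held 1 FOXA spelling at position -82, counted from the listed start. GPR116 held 2 FOXA spellings and 1 NKX2 spelling, and NKX2-1 held 1 FOXA spelling and both NKX2 spellings. A match is a description of these letters only.

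Levels are given in FPKM, fragment counts scaled by transcript length and library size, which the authors computed within each table, so levels set side by side from different tables are approximate. Between 11268 and 12773 genes reached 1 FPKM in a library. The shRNA target ABL1 stood at 24.9 FPKM in PC9 with scrambled shRNA and 3.97 with the ABL1/ABL2 shRNAs, and at 10.5 and 3.56 in PC9M. ABL2 was at 7.88 and 1.87 in PC9 and at 5.22 and 3.03 in PC9M. The PC9 control libraries stand apart: of 12161 genes, 17.6% were at least 2-fold apart between scrambled and DMSO after centring, against 2.86% in PC9M.

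The 3 lines did not carry the same set of lineage factors. NKX2-1, listed on chromosome 14 from 36055353 to 36059181 on hg18, was at 92.1 FPKM in H358 with DMSO and 46.3 with GNF5. In the 8 PC9 and PC9M libraries it was listed at 0 or at most 0.0206 FPKM, so the defining lung lineage factor was near 0 in both of these lines although the labels call them adenocarcinoma. FOXA2, on chromosome 20 from 22509642 to 22514101, followed the same division, with 18.8 and 15.3 FPKM in H358 and 0.0581 to 0.501 in the other lines. SOX2 was at 25.8 FPKM in H358 with DMSO and 18.9 with GNF5, and at no more than 0.0563 elsewhere. The share of all genes that separate H358 from PC9 and PC9M in this way was not counted. The listed SOX2 locus, on chromosome 3 from 182810845 to 182941699, overlaps SOX2-OT, which reached at most 0.288 FPKM, and the tables do not say whether strand was used. FOXA1 was the factor shared by all: on chromosome 14 from 37128942 to 37134240, it lay between 18.6 and 36.0 FPKM in the 10 libraries.

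The secretory pair differed in another way. AGR2, on chromosome 7 from 16798789 to 16811263, was above 1 FPKM in every library and highest in H358, at 353 FPKM with DMSO and 301 with GNF5. In PC9 it was at 48.0 with DMSO, 26.6 with GNF5, 34.7 with scrambled shRNA and 97.4 with the ABL1/ABL2 shRNAs. In PC9M the same 4 cultures had 37.5, 25.5, 11.4 and 12.1 FPKM. SPDEF, on chromosome 6 from 34613557 to 34632088, was highest in PC9, at 16.9 FPKM with DMSO, 5.19 with GNF5, 1.06 with scrambled shRNA and 7.77 with the ABL1/ABL2 shRNAs. It was at 2.10, 1.08, 0.403 and 0.413 FPKM in the 4 PC9M cultures in that order, and at 2.98 and 2.08 in H358. Among the PC9 cultures AGR2 was lowest with GNF5 and SPDEF with scrambled shRNA. In PC9M both transduced cultures were below the DMSO and GNF5 cultures for both genes. These levels come from separate tables, and the share of all genes with that order was not counted.

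The surfactant genes differed by line and, within PC9, by culture, and the DMSO culture of PC9 alone had all 4 at or above 1 FPKM. GPR116, on chromosome 6 from 46928204 to 47030634, was at 65.5 FPKM in PC9 with DMSO, 26.2 with GNF5, 23.1 with scrambled shRNA and 25.3 with the ABL1/ABL2 shRNAs. In H358 it was at 11.7 with DMSO and 1.67 with GNF5, and in the 4 PC9M libraries at 0 to 0.0194. PC9 and PC9M thus did not overlap for GPR116, but the share of all genes that separate these lines was not counted. The libraries of a line are different cultures and not replicates. SFTPB, on chromosome 2 from 85737951 to 85749375, reached 1 FPKM in the PC9 DMSO and GNF5 libraries alone, at 15.2 and 3.95, and was at 0.197 and 0.0777 in the PC9 scrambled and ABL1/ABL2 shRNA libraries. The other lines were at 0.0583 to 0.179 FPKM for SFTPB, H358 with its high NKX2-1 included. NAPSA, on chromosome 19 from 55553546 to 55560743, was at 9.47 and 4.73 FPKM in H358 and at 1.37 and 1.23 in PC9 with DMSO and GNF5, and was below 1 FPKM in the other 6 libraries. ABCA3, on chromosome 16 from 2265880 to 2330748, was low throughout, between 0.233 FPKM in PC9 with scrambled shRNA and 3.73 in PC9M with GNF5. The 4 PC9M libraries were at 2.55 to 3.73, close to the highest of the other 6, H358 with GNF5 at 2.30. The share of all genes with such an order was not counted.

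**Figure D1:**
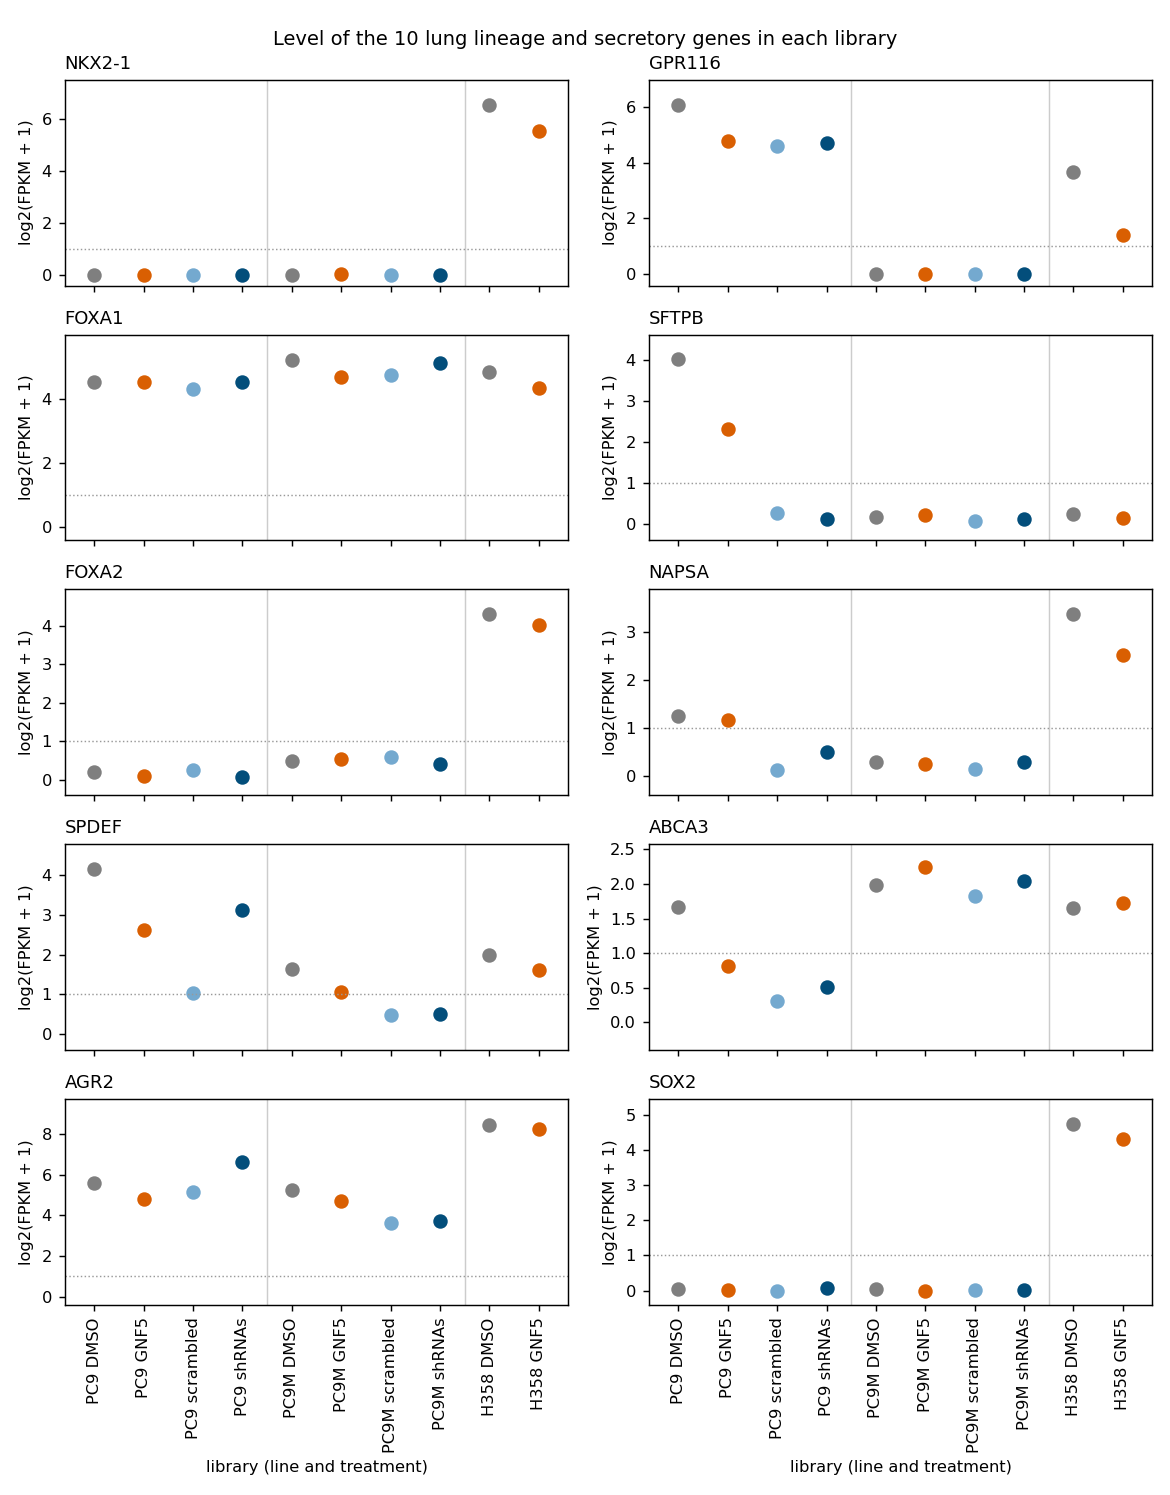
Each panel shows 1 gene, with log2(FPKM + 1) on the y axis and the 10 libraries on the x axis, 1 point a library, coloured by treatment (grey DMSO, orange GNF5, light blue scrambled shRNA, dark blue ABL1/ABL2 shRNAs). Vertical lines separate PC9, PC9M and H358, and the dotted line marks 1 FPKM. NKX2-1, FOXA2 and SOX2 stand above that line in the 2 H358 libraries, FOXA1 and AGR2 in all 10, and SFTPB in 2 PC9 libraries.

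Other lung and secretory genes, from 10 lists of related genes, describe the same lines. Of 16 surfactant and alveolar type 2 genes 5 reached 1 FPKM in any library, and the surfactant proteins SFTPC, SFTPA1, SFTPA2 and SFTPD stayed below it in all 10, at no more than 0.159 FPKM. SFTA3, a gene beside NKX2-1 on chromosome 14, was at 41.8 FPKM in H358 with DMSO and listed at 0 in all 8 PC9 and PC9M libraries. Of 7 club cell genes 2 reached 1 FPKM: the secreted whey acidic protein WFDC2, at 47.6 to 554 FPKM, and the aldehyde dehydrogenase ALDH1A1, at up to 8.62 FPKM. SCGB1A1 and SCGB3A2, the secretoglobins that define club cells, stayed below 1 FPKM. The goblet factor FOXA3 was at most 0.0957 FPKM, and AGR3, the paralog beside AGR2, was at 14.0 and 7.65 FPKM in H358 and at most 0.156 elsewhere. The mucin MUC5AC was not analysed here. None of the 7 neuroendocrine genes reached 1 FPKM. Of the basal genes, TP63 was at 34.4 and 5.66 FPKM in H358 and below 1 elsewhere, while KRT5 was at 8.78 to 89.3 FPKM in PC9. Of 8 endothelial, immune and stromal genes 4 reached 1 FPKM. They include 2 endothelial adhesion molecules. PECAM1 was at 23.2 FPKM in PC9 with DMSO, 11.3 with GNF5, 5.33 with scrambled shRNA and 4.97 with the ABL1/ABL2 shRNAs, and below 1 FPKM in PC9M and H358. CDH5 was at 4.43 to 10.4 FPKM in PC9, 2.26 to 3.69 in PC9M and below 1 in H358. The stromal proteoglycan LUM was at 6.54 and 2.47 FPKM in H358, a ratio of -1.12, and near or at 0 elsewhere, and the monocyte receptor CD14 reached at most 2.66 FPKM. The summed level of the 8 was 14.7 to 34.3 FPKM in PC9, 3.02 to 4.73 in PC9M and 3.38 to 8.22 in H358, while the remaining 4, VWF, PTPRC, CD3E and DCN, stayed below 1 FPKM, DCN at 0 throughout.

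In PC9 the counted members lay on the lower side with GNF5, SFTPB, SPDEF and GPR116 furthest. All ratios are log2 of treated over control after adding 1 FPKM to each, which pulls the ratio of a gene below 1 FPKM toward 0, and genes with at least 1 FPKM in either library of a pair were counted. Of 7 members counted, all 7 were lower with GNF5 and 3 were at least 2-fold lower, where 6.83% of the 12004 genes counted were. Genes at least 2-fold higher made up 5.17%, and those apart in either direction 12.0%. The 3 were SFTPB at -1.71, SPDEF at -1.53 and GPR116 at -1.29. ABCA3 at -0.85 and AGR2 at -0.83 came next, and NAPSA at -0.09 and FOXA1 at -0.01 were nearly level. After centring on the median of all genes, FOXA1 and NAPSA stood on the higher side, at 0.086 and 0.0091, and the other 5 on the lower. The median of the 7 was -0.85, beside -0.10 over all genes counted, of which 57.0% were lower. The authors' deposited table marks none of the 7 as significant, with q from 0.535 for GPR116 and 0.537 for SFTPB upward, and marks 0.159% of all genes. PECAM1 and CDH5, endothelial genes, were at -0.98 and -0.78 in this pair, and their part in the GPR116 ratio was not tested.

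The scrambled library of PC9, set beside the same DMSO library, was also low for most of these members. SFTPB was at -3.92, SPDEF at -3.28, GPR116 at -1.63, ABCA3 at -1.53 and NAPSA at -1.30, scrambled over DMSO, across tables and after centring on a median of 0.17. These 5 of 7 members were at least 2-fold lower, beside 10.3% of 12161 genes. GNF5 over DMSO and scrambled over DMSO share the DMSO library, and the part of that library in the GNF5 ratios was not tested. In PC9M the scrambled library was at -1.62 for AGR2 and -1.13 for SPDEF, 2 of 4 members counted, where 1.24% of genes were at least 2-fold lower.

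In PC9M, GNF5 left no member at least 2-fold apart among the 4 counted, where 3.39% of 12370 genes were, 1.58% higher and 1.81% lower. SPDEF was at -0.58, FOXA1 at -0.55 and AGR2 at -0.54, each lower with GNF5, and ABCA3 was higher at 0.25. Their median was -0.54, beside -0.06 over all genes, of which 57.7% were lower. FOXA1, level in PC9, was thus at 36.0 FPKM with DMSO and 24.3 with GNF5 in PC9M.

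In H358, the line with NKX2-1, 9 members were counted and 8 were lower with GNF5. GPR116 was at -2.25 and was the 1 member at least 2-fold lower, where 2.40% of 12951 genes were, 1.12% were at least 2-fold higher and 3.52% were apart in either direction. NKX2-1 was at -0.98 and NAPSA at -0.87, with linear ratios of FPKM of 0.502 and 0.499. These 2 and GPR116 thus stood furthest from level. FOXA1 stood at -0.50, SOX2 at -0.43, SPDEF at -0.37, FOXA2 at -0.28 and AGR2 at -0.23, and ABCA3 was at 0.075. All genes of this pair had a median of -0.19 with 74.5% lower, so part of each value is shared by the table. Relative to that median GPR116 was at -2.06, NKX2-1 at -0.79, NAPSA at -0.68, FOXA1 at -0.31, SOX2 at -0.23, SPDEF at -0.18, FOXA2 at -0.09, AGR2 at -0.04 and ABCA3 at 0.27. The authors' deposited table gives q = 5.84e-09 for GPR116 and q = 0.182 for NKX2-1 in a test of 1 library against 1, and marks 0.461% of genes as significant. It marks no other member in this pair.

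With the ABL1/ABL2 shRNAs in PC9, 4 members were counted and all 4 were higher than with scrambled shRNA. SPDEF at 2.09 and AGR2 at 1.46 were at least 2-fold higher, where 1.21% of 11861 genes were, 1.92% were at least 2-fold lower and 3.13% were apart in either direction. They ranked 60 and 79 from the highest. FOXA1 was at 0.22 and GPR116 at 0.13, beside a median of -0.09 over all genes, of which 62.3% were lower. The authors' deposited table gives q = 0.00136 for SPDEF and q = 0.00314 for AGR2, again from 1 library against 1, with 0.435% of genes marked. SFTPB, NAPSA and ABCA3 were below 1 FPKM in both libraries of this pair. Against the DMSO library of another table, SPDEF with the ABL1/ABL2 shRNAs was still below 16.9 FPKM, whereas AGR2 at 97.4 FPKM was above 48.0.

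In PC9M the shRNAs left 0 of 3 counted members at least 2-fold apart, where 1.82% of 12126 genes were, 1.01% higher and 0.808% lower. FOXA1 was at 0.39, ABCA3 at 0.21 and AGR2 at 0.08, all on the higher side, beside a median of -0.01 over all genes. Of all genes counted, 51.9% were lower. SPDEF, at 0.403 and 0.413 FPKM, was below the level at which a ratio was counted. ABL1 was at a ratio of -1.33 in this pair and -2.38 in PC9.

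**Figure D2:**
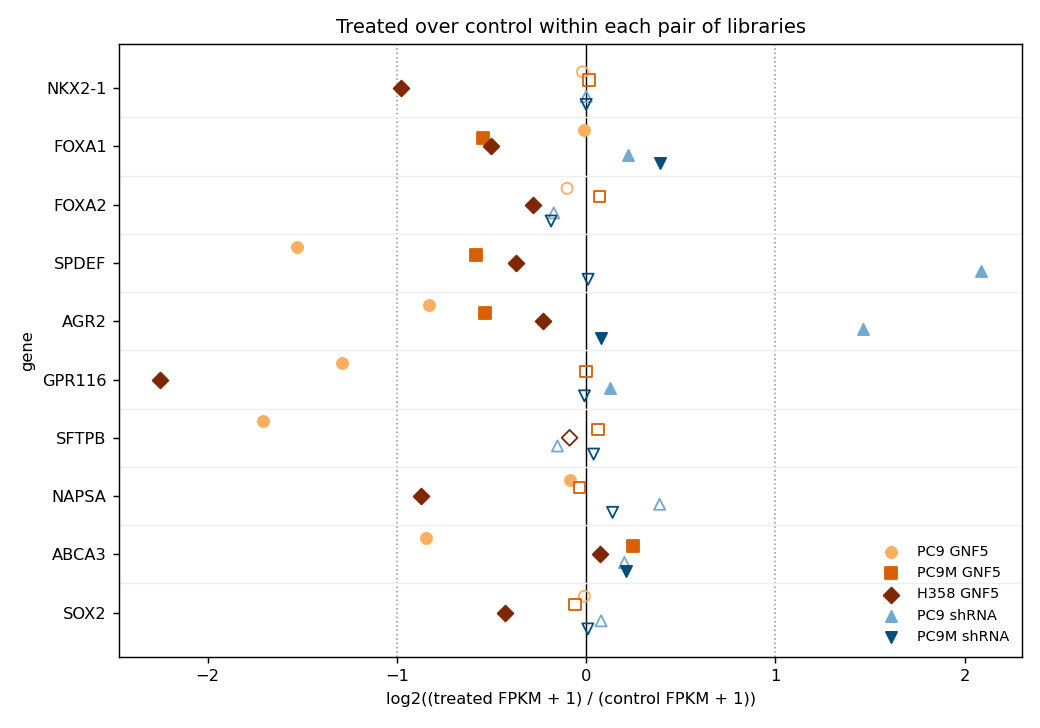
The log2 ratio of treated over control FPKM, after adding 1, is on the x axis for each of the 10 genes on the y axis, with 1 marker for each of the 5 pairs of libraries. Open markers are genes below 1 FPKM in both libraries, and dotted lines mark 2-fold. Filled GNF5 markers lie left of 0 for SPDEF, AGR2 and GPR116, down to -2.25, and the PC9 shRNA markers of SPDEF and AGR2 lie right of 1.

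Across lines, the ratios were tested with limma in 1 fit of all 5 pairs, with the lines as the units. All 10 members passed the filter of 1 FPKM in 2 libraries, but NKX2-1, FOXA2, SFTPB and SOX2 did so through a single pair. No member passed a Benjamini-Hochberg adjusted p of 0.05 for GNF5, where 1 of 13885 genes, 0.00720%, did. That gene, the microRNA gene MIR149, is named because of the count and not by a rule. GPR116 had the lowest mean, -1.18 (SE 0.401, 95% confidence interval -2.17 to -0.19), with an unadjusted p of 0.0269 and an adjusted p of 0.268. Over all genes 2359 of 13885, or 17.0%, had an unadjusted p under 0.05 for GNF5, and GPR116 was 1 of 10 members. It was lower in 2 of the 2 lines that expressed it. SPDEF had a mean of -0.83 (SE 0.425) and AGR2 of -0.53 (SE 0.274), both lower in 3 of 3 lines, with a limma adjusted p of 0.365 each. FOXA1 had a mean of -0.35 (SE 0.146, limma adjusted p = 0.299), lower in PC9M and H358 and level in PC9. The GPR116 mean takes in PC9M, where the gene was at 0.0194 and 0.0185 FPKM and the ratio was -0.0012. This value pulls the mean toward 0. GPR116 was at -0.65 without H358 and -1.77 without PC9M, and SPDEF at -0.47 without PC9. Several other means rested on 1 line. Without PC9, SFTPB was at -0.0125, and without H358, NKX2-1 was at -0.0019, NAPSA at -0.062, SOX2 at -0.034 and FOXA2 at -0.015. The other 6 members had means between -0.58 for SFTPB and -0.10 for FOXA2.

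For the shRNAs limma called 0 of 13885 genes, with 595 at an unadjusted p under 0.05, and the adjusted p was 1 for each member. SPDEF had a mean of 1.05 (SE 0.521, interval -0.24 to 2.33) and AGR2 of 0.77 (SE 0.336, interval -0.06 to 1.60), both resting on PC9. Without PC9 the means were 0.01 for SPDEF and 0.08 for AGR2, and without PC9M they were 2.09 and 1.46. FOXA1 had a mean of 0.30 (SE 0.179) and was higher in 2 of 2 lines.

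The difference between the perturbations, GNF5 minus shRNA, was tested in the same fit. It was -1.88 for SPDEF (SE 0.672), -1.30 for AGR2 (SE 0.434) and -0.66 for FOXA1 (SE 0.231). Their limma unadjusted p-values were 0.0328, 0.0251 and 0.0303, and the adjusted p was 0.581 for each. The fit has no term for line, so these p-values treat the GNF5 and shRNA ratios of PC9, and those of PC9M, as independent. Member differences with a block by line were not examined. Of 13885 genes, 0 passed after adjustment and 1137 had an unadjusted p under 0.05. A p that misses the threshold does not show that the perturbations act alike. The GNF5 mean spans 3 lines and the shRNA mean 2, without H358, and their controls differ. In PC9 the DMSO and scrambled controls were at 16.9 and 1.06 FPKM for SPDEF, 48.0 and 34.7 for AGR2 and 22.1 and 18.6 for FOXA1. SPDEF was at 5.19 FPKM in PC9 with GNF5 and 7.77 with the ABL1/ABL2 shRNAs. The part of the controls and of H358 in these differences was not tested.

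**Figure D3:**
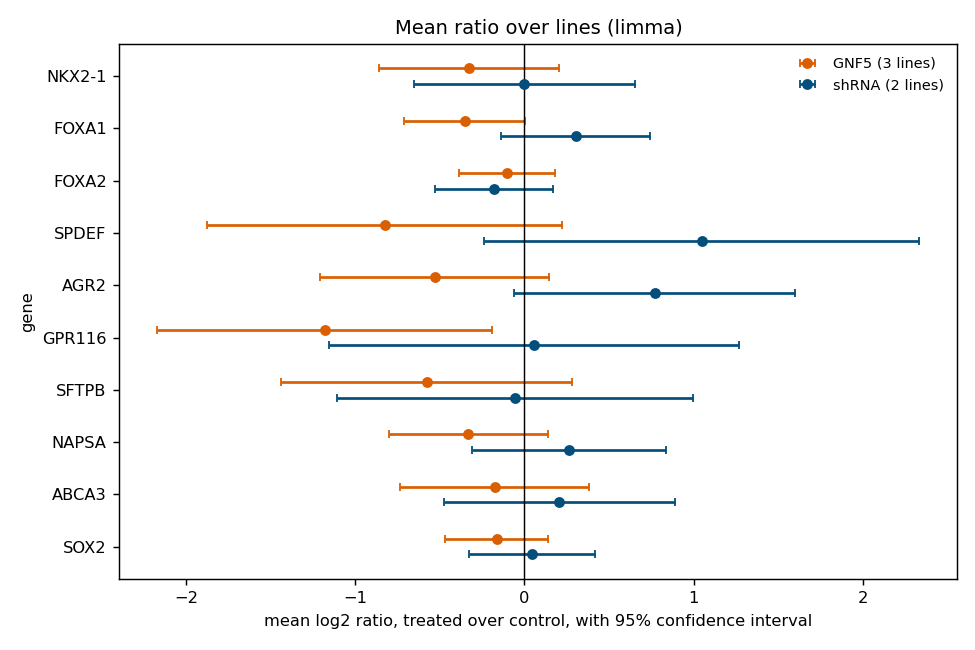
Points show the mean log2 ratio of treated over control from limma for the 10 genes, with bars for the 95% confidence interval, in orange for GNF5 over 3 lines and in blue for the ABL1/ABL2 shRNAs over 2 lines. The GNF5 interval of GPR116, -2.17 to -0.19, leaves out 0 before adjustment, as do those of 17.0% of all genes, and every other interval drawn holds 0.

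The related lists were followed through the same pairs, and 0 of their 56 tested genes passed limma's adjusted p of 0.05 for GNF5 or for the shRNAs. At an unadjusted p under 0.05, 7 of the 56 were lower and 0 higher for GNF5, where 17.0% of all genes passed that level in either direction, and 8 were lower and 0 higher for the shRNAs, where 4.29% did. In H358 with GNF5, 14 of 15 counted lung and endoderm transcription factors were lower, with a median of -0.39, beside 74.5% lower and a median of -0.19 over all genes. ID2, an inhibitor of helix-loop-helix factors in mouse lung progenitors, was at 46.9 and 20.7 FPKM, a ratio of -1.14. SFTA3 was at 41.8 and 13.5 FPKM there, a ratio of -1.56, lower on the log2 scale than NKX2-1. AGR3 was at -0.80 and the airway mucin MUC5B at -0.92, with TP63 at -2.41 and the caveolar protein CAV1, a type 1 cell marker, at -1.68. Of the counted goblet and mucus genes 7 were lower and 2 higher in this pair, with a median of -0.41. TP63 stood apart from its list, in which 2 counted basal and squamous genes were lower and 1 higher, with a median of -0.0088. Of the counted type 1 cell genes 4 were lower and 1 higher. In PC9 with GNF5, MUC5B was at 14.1 and 1.78 FPKM, a ratio of -2.44, and the ETS factor ETV5 at -1.38 and CEBPA at -1.07 were lower. The endoderm factor GATA6 and the epithelial ETS factor ELF3 were higher there, at 1.68 and 1.28. Their lists were split in this pair, where 57.0% of all genes were lower. Counted surfactant and type 2 genes were 2 lower and 2 higher, goblet and mucus genes 4 and 3, and transcription factors 7 and 6.

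In PC9M with GNF5, the membrane mucins MUC4 and MUC1 were at 1.43 and 1.09, on the other side from SPDEF and AGR2. With the shRNAs, 7 of 7 counted basal and squamous genes were lower in PC9 and 6 of 6 in PC9M, with medians of -0.80 and -0.49. Over all genes 62.3% and 51.9% were lower, with medians of -0.09 and -0.01. Their summed level was 684 FPKM in PC9 with scrambled shRNA and 256 with the ABL1/ABL2 shRNAs, beside 174 with DMSO, and the part of this in the higher SPDEF and AGR2 was not tested. KRT6B and KRT6A held much of the scrambled sum in PC9, at 273 and 112 FPKM. They were at 42.3 and 19.45 FPKM with the ABL1/ABL2 shRNAs. These keratins are close paralogs that can share reads. The gastric peptides TFF1 and TFF2 were at -2.16 and -1.16 in PC9 with the shRNAs, opposite to SPDEF and AGR2. LAMP3, a lamellar body and dendritic cell protein, was at 6.76 and 18.2 FPKM in PC9M with the shRNAs, a ratio of 1.31. In PC9 it was level, at 1.03 FPKM with scrambled shRNA and 1.01 with the ABL1/ABL2 shRNAs, a ratio of -0.01.

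**Figure D4:**
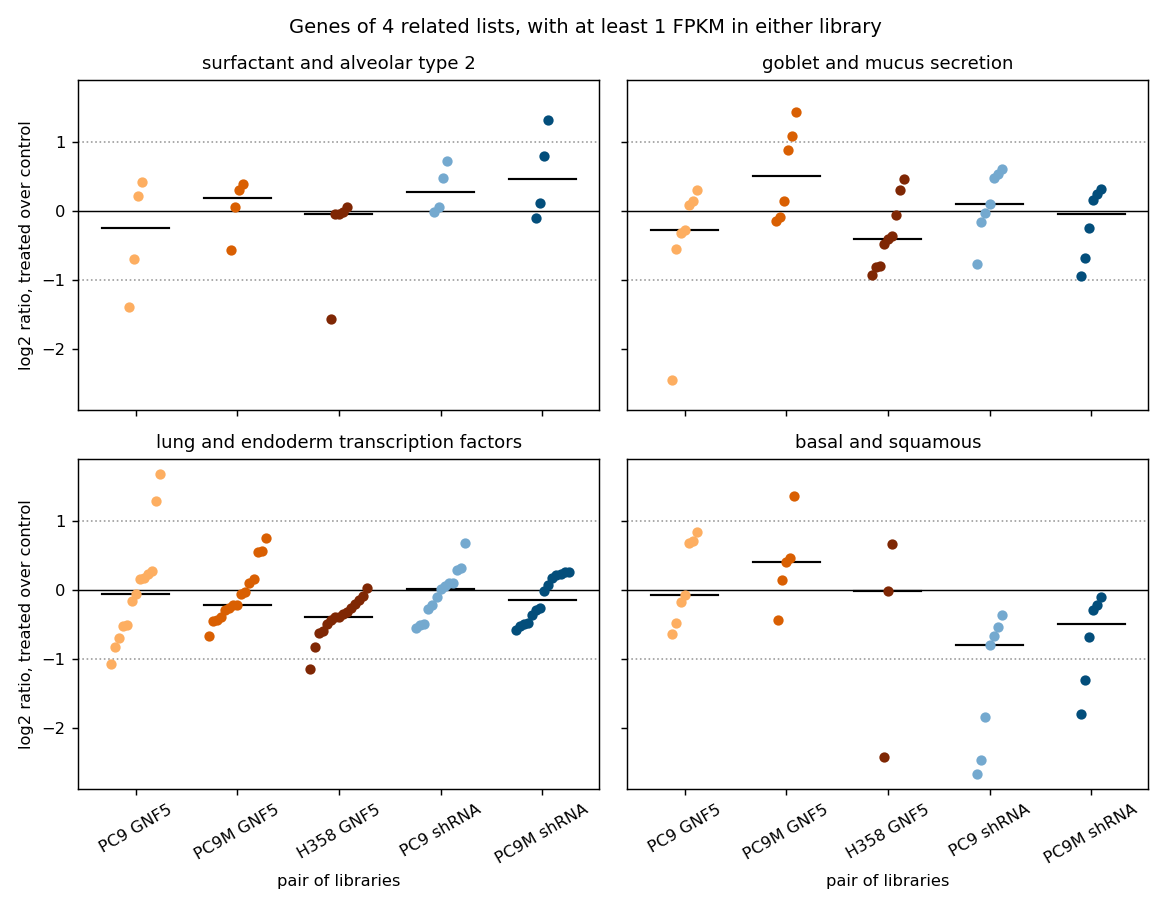
Log2 ratios of treated over control are on the y axis for single genes of 4 lists with at least 1 FPKM in either library, by pair of libraries on the x axis, with black bars for the median. In the basal and squamous panel all points of both shRNA pairs lie below 0, with medians of -0.80 and -0.49, and in the transcription factor panel 14 of 15 points of H358 do.

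The genes whose levels were most like those of a member over the 10 libraries were ranked by Pearson's r of log2(FPKM + 1), among 10482 protein-coding genes with at least 5 FPKM in any library. The libraries share lines and tables, so these values describe this set alone. For NKX2-1, 341 genes had an r above 0.95, led by PCDHGB5, XAGE1E and SRPX, which like it were seen in H358. SOX2 was led by PPP1R14A, ZNF667 and NXF2, and FOXA2 by ATP8A1, PCDHGA11 and MOXD1, with 338 and 364 genes above 0.95. SFTPB had 4 such genes, led by APOBEC3H at 0.983, IL1A at 0.974 and LDB3 at 0.960, over the 10 libraries. AGR2 had 5, led by C11orf71 at 0.964, ARL6IP4 at 0.963 and ALAD at 0.957. GPR116 was nearest to HDHD1, BRD1 and RAI1, and NAPSA to ZNF609, GLRB and UNC5CL, each at 0.981 to 0.987. GPR116 and NAPSA had 94 and 57 genes above 0.95. SPDEF and FOXA1 had 0 above 0.95: SPDEF was nearest to EVI5L at 0.913, ELMOD3 and MC1R, and FOXA1 to CPT1A at 0.893, ARID1B and HSPD1.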

How the data were processed

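RNA of 10 cultures was sequenced with 1 library each. Per the submitters' processing notes, TopHat and Cuffdiff were used on hg18, with versions and annotation not given in the sources used here. The deposited tables give FPKM, scaled by the authors within each of the 5 pairs, and Cuffdiff p-values and q-values from single libraries, per the file headers. The H358 header numbers its treated condition as if 1 more had been in that run, which could have changed its scaling. Read depth is unknown, since the tables hold no counts, and no counting interval can be given.

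Tables were joined by gene symbol. Date-like symbols, 28 in each table, and EEF1A1, which lacks an estimate, were dropped. Loci were converted to 1-based starts. Ratios are log2((treated + 1)/(control + 1)). limma 3.58.1 in R 4.3.3 fitted perturbation to the 5 ratios of the 13885 genes that reached 1 FPKM in 2 libraries. The prior was trended, the residual degrees of freedom were 3, and Benjamini-Hochberg adjustment was used at 0.05. Genes of equal ratios had their variance moved off 0. Each line gives 1 ratio for a perturbation, so p-values measure the spread between lines, pooled over both perturbations, and the name of PC9M points to an origin in PC9. The fit was tested on simulated data. Other work used Python 3.11.15 with pandas 2.3.3.

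Members and lists were chosen with earlier results of these data known. Of 114 list genes 112 were in the tables. Genes named are the members, ABL1 and ABL2, up to 4 genes a list (at least 2-fold apart in any pair first, then by highest FPKM), a fixed set of surfactant, club, goblet and basal genes, and the 3 genes most like each member with at least 5 FPKM in a library. VWF, PTPRC, CD3E and DCN were added as defining markers after their values were seen. Alternatives were other pseudocounts (0.1 and 5), other minimum levels, a 1.5-fold limit, centring, an untrended prior, a replicate block by cell line and leaving out each comparison.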

Additional observations from a re-analysis of the deposited data

Results flagged for a closer look

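ABCA3, the surfactant lipid transporter, was at -0.85 with GNF5 in PC9 but at 0.25 in PC9M and 0.0747 in H358, opposite directions with 1 library a group. The labelled GNF5 dose was 10 mM in PC9 and H358 but 20 mM in PC9M, so dose and line cannot be told apart for PC9M. The difference between lines was not tested, and its level was at most 3.73 FPKM in any library.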

How the results depend on the processing

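No member passed an adjusted p of 0.05 in any of 222 alternatives of the member means, the smallest limma adjusted p being 0.176, and 219 kept their direction. Means that turned did so when a comparison was left out: ABCA3 for GNF5 was at 0.16 without PC9 GNF5 (range -0.39 to 0.16), and without PC9 shRNA the shRNA means of GPR116 and SFTPB were -0.0089 (range to 0.13) and 0.0392 (range from -0.15). Over all genes limma called 1 for GNF5, but 3 with a pseudocount of 0.1, 2 at 5 FPKM or with centred ratios, and 0 with a pseudocount of 5, no filter or the replicate block by cell line. The block left the other 2 counts at 0. The shRNA count was 1 with a pseudocount of 0.1 or centred ratios, and the difference 2 with a pseudocount of 0.1. Leaving out a comparison gave 0 to 5 for each contrast. Genes at least 2-fold apart with a pseudocount of 0.1 with GNF5 numbered 2302 in PC9, 713 in PC9M and 762 in H358, and with the shRNAs 583 in PC9. With a pseudocount of 5 they numbered 628, 222, 257 and 190, and 140 for the shRNAs in PC9M. At 1.5-fold they numbered 3958, 1694, 1769, 1246 and 546, and 5 members in PC9 and 3 in H358 with GNF5. Every member at least 2-fold apart stayed so under both pseudocounts and with centred ratios, and ABCA3 joined them in PC9 with GNF5 at a pseudocount of 0.1, making 4. Low levels limit SFTPB, NAPSA and ABCA3, whose ratios near 1 FPKM depend on the pseudocount.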
